A study of Mus musculus with 6 samples.

Results

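A set of 10 genes that the transcription factor p53 switches on to drive cell death or autophagy was followed in lungs of mouse embryos, with and without a deletion of Dnmt1. They were Pmaip1, Bbc3, Bax, Fas, Eda2r, Perp, Phlda3, Dram1, Trp53inp1 and Aen, taken by symbol, and all 10 were among the 14162 genes measured. p53 is held at a low level by the ubiquitin ligase Mdm2 and is stabilised by DNA damage and other stress. It then induces genes for cell cycle arrest, for DNA repair and for apoptosis, the last through proteins that permeabilise mitochondria and through death receptors at the cell surface. Some of its targets act on autophagy, the delivery of cell contents to the lysosome. In mouse fibroblasts, loss of Dnmt1 is known to set off a p53-dependent cell death.

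RNA was sequenced from lungs at E12.5, when the airway epithelium branches into a thick mesenchyme. The 3 libraries called Dnmt1KO carry the genotype ShhCre-Dnmt1KO, in which Cre recombinase made from the Shh locus removes Dnmt1, the maintenance DNA methyltransferase, in the endoderm that forms the airway lining. The 3 WT libraries are from wild-type littermates of the same age. Cre is named for the Dnmt1KO group alone, so effects of carrying Cre at Shh and of losing Dnmt1 cannot be told apart. No sorting is named and the tissue is whole lung, in which mesenchyme, vessels and blood lie outside the Shh lineage and keep Dnmt1. In such bulk samples, fewer cells of a type and less RNA per cell cannot be told apart. Whether separate embryos were used for separate libraries is not stated. The limma p-values set a group difference against the spread between these libraries, moderated over all genes.

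The libraries held between 18192629 and 21046831 reads in the Dnmt1KO group and between 20599736 and 25597662 in the WT group. Dnmt1 itself stood at 80.7% of the WT level, with every Dnmt1KO library below every WT library (limma adjusted p = 0.507; exact two-sided permutation p = 0.1, the smallest that 3 against 3 allow). All 10 lung epithelium markers and all 8 lung mesenchyme markers sought were measured, none of them at 0 reads in any library. Summed epithelial marker reads, scaled to one depth, ran from 12448 to 18248 in Dnmt1KO and from 15854 to 18432 in WT. Within them Shh, the locus that carries Cre, stood at a log2 difference of -0.98 ± 0.22 (SE, limma adjusted p = 0.213) and Foxa1 at -1.51 ± 0.32 (adjusted p = 0.223), both with every Dnmt1KO library below every WT library, and Foxa2 at -0.42 ± 0.18. Without Dnmt1KO replicate 3, limma called Foxa1 lower (adjusted p = 0.000667), and no other fit that left out 1 library did. Of all 10 epithelial markers, 6 had a negative fold change and 4 a positive one, with a median of -0.19. Among the positive ones were Cdh1 (0.17) and Sox9 (0.15). The sum of 4 measured liver markers ran from 317 to 606 in Dnmt1KO and from 64.2 to 115 in WT. That of 5 heart muscle markers was 10614 in Dnmt1KO replicate 2, against 763 to 2197 in the other Dnmt1KO libraries and 1010 to 1533 in WT. Macrophage marker sums ran from 2379 to 2929 in Dnmt1KO and from 2385 to 2916 in WT, and endothelial ones from 9896 to 13302 in Dnmt1KO and from 7762 to 12811 in WT. With all 6 libraries, none of the markers measured for these tissues, nor of 3 mesothelial and 5 neural ones, passed limma's test or voom, and 9 had an unadjusted p under 0.05, including all 4 of liver, higher in Dnmt1KO, and 3 of the epithelium, lower in Dnmt1KO. Dnmt1KO replicate 1 had 3 reads over 4 genes of the Y chromosome, while the other 5 libraries had between 4155 and 5207. The part of these differences in the results that follow was not tested.

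Ranked by fold change, the 10 genes are described here in 3 steps. These were drawn from the same values and not tested. Perp, Pmaip1, Eda2r and Dram1 stood between 4.16 and 5.66 times their WT level in Dnmt1KO lungs. Fas, Bbc3 and Trp53inp1 stood between 1.56 and 1.62 times, and Phlda3, Bax and Aen between 0.990 and 1.12 times. Neighbours within a step differed by less than the sum of their standard errors, while the gaps between Dram1 and Fas (1.36 on the log2 scale) and between Trp53inp1 and Phlda3 (0.48) exceeded it. Over all genes tested, limma called 1 of the 10 higher in Dnmt1KO, Dram1, and none lower, against 0.282% of all genes called higher and 0.00706% called lower. At an unadjusted p under 0.05 there were 6 of the 10, none of them lower, against 4.52% of all genes in either direction. Voom called 1 of the 10 higher, again Dram1, against 0.219% of all genes. In 7 of the 10 every Dnmt1KO library lay above every WT library, against 4.79% of all genes. In none did every Dnmt1KO library lie below, against 3.99% of all genes, and in the other 3 the groups overlapped. The log2 fold change was above 2 in 4 of the 10, against 0.784% of all genes, and above 0.5 in 7, against 5.29%. As a median, the 10 had a log2 fold change of 0.69, beside -0.000059 over all genes.

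**Figure D1:**
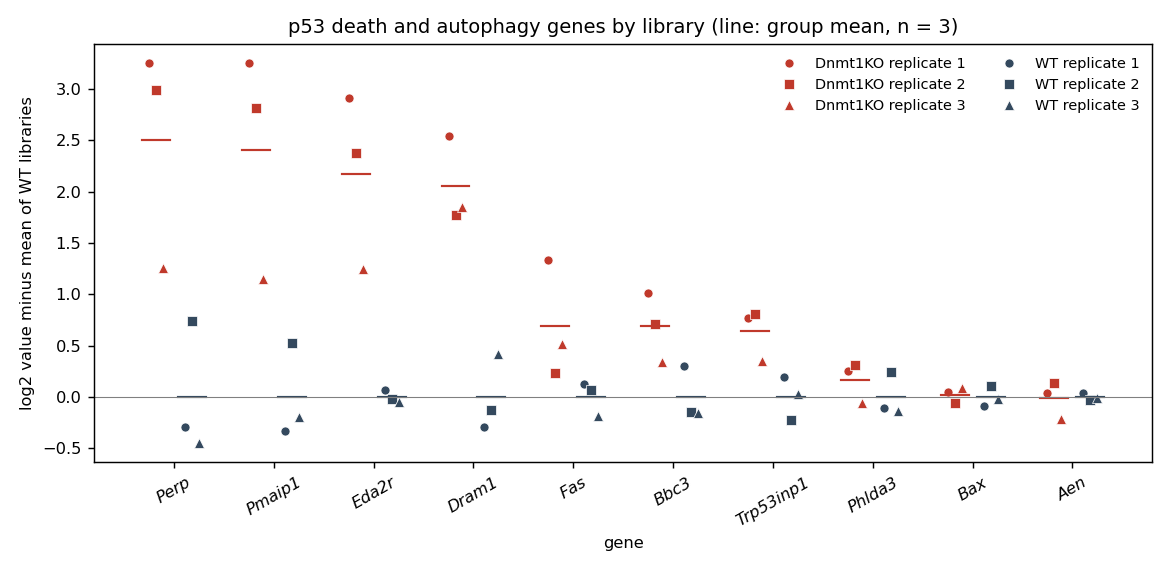
The vertical axis gives the log2 value of each gene in each library minus the mean of the WT libraries, with Dnmt1KO libraries in red left of WT libraries in grey, symbols for the replicate numbers and a line at the group mean (n = 3). For Perp, Pmaip1 and Eda2r, Dnmt1KO replicates 1 and 2 lie far above replicate 3, and for Bax and Aen the groups overlap around 0.

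Of the autophagy genes, Dram1 passed the test and Trp53inp1 did not. Dram1 encodes a lysosomal membrane protein through which p53 promotes autophagy. Its reads, scaled to one depth, were 1217, 716 and 752 in Dnmt1KO replicates 1, 2 and 3, against 170, 191 and 280 in WT replicates 1, 2 and 3. The lowest Dnmt1KO library lay 1.35 log2 units above the highest WT library. On the log2 scale Dram1 averaged 12.03 ± 0.42 in Dnmt1KO lungs and 9.97 ± 0.38 in WT lungs (SD, n = 3). It rose by 2.06 ± 0.25 (SE), or 4.16-fold with a 95% confidence interval of 2.82 to 6.13 (limma adjusted p = 0.0147). The call held in 4 of the 6 fits that left out 1 library and ended without Dnmt1KO replicate 1 (adjusted p = 0.0513) or WT replicate 2 (0.0528), where the log2 fold change was 1.81 and 1.99. It also ended with the lowest 25% of genes removed (0.129), without trend and robust estimation (0.0836) and with the replicate number as a block (0.138).

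Trp53inp1 encodes a stress-induced nuclear protein that also takes part in autophagy. It had 882, 908 and 661 scaled reads in Dnmt1KO and 593, 442 and 529 in WT. The lowest Dnmt1KO library exceeded the highest WT library by 0.16 log2 units. The log2 difference was 0.64 ± 0.16 (SE), 1.56-fold with an interval of 1.22 to 2.00, and did not pass (limma adjusted p = 0.292).

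The members of the BCL2 family differed among themselves. Pmaip1, also called Noxa, and Bbc3, also called PUMA, are BH3-only proteins that bind and block the survival proteins of the family, while Bax is an effector that forms pores in the outer mitochondrial membrane. Pmaip1 had 205, 151 and 47.4 scaled reads in Dnmt1KO against 16.7, 30.6 and 18.4 in WT. All Dnmt1KO libraries were above the WT range, with replicate 3 less than a log2 unit above the highest WT library, at a gap of 0.62. The log2 means were 9.10 ± 1.11 in Dnmt1KO and 6.69 ± 0.46 in WT (SD of 3 libraries), a difference of 2.41 ± 0.53 (SE). This 5.30-fold value had an interval of 2.30 to 12.2 and did not pass (limma adjusted p = 0.208). Without Dnmt1KO replicate 3 it was 8.19-fold, and as 1 library was left out the log2 difference ran from 1.98 to 3.03.

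Bbc3 had 331, 269 and 208 scaled reads in Dnmt1KO and 203, 149 and 147 in WT. The groups were separated by 0.036 log2 units only, between Dnmt1KO replicate 3 and WT replicate 1. The log2 difference of 0.69 ± 0.21 (SE), 1.61-fold with an interval of 1.15 to 2.25, did not pass (limma adjusted p = 0.607). Bax had 2307, 2148 and 2369 scaled reads in Dnmt1KO and 2108, 2409 and 2201 in WT, so the groups overlapped. Its log2 difference was 0.024 ± 0.085 (SE), and the interval of the ratio ran from 0.889 to 1.16 (limma adjusted p = 1).

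The receptors are Fas, the death receptor of the TNF receptor superfamily that activates caspase-8 through Fadd, and Eda2r, the receptor of the same superfamily for the A2 form of ectodysplasin. Eda2r lies on the X chromosome. It had 396, 273 and 125 scaled reads in Dnmt1KO and 55.0, 51.6 and 50.5 in WT. The WT libraries lay within a narrow range, and the lowest Dnmt1KO library was 1.18 log2 units above them. Eda2r averaged 10.16 ± 0.85 in Dnmt1KO and 7.99 ± 0.06 in WT (log2, SD of 3 libraries). The difference of 2.18 ± 0.37 (SE), 4.52-fold with an interval of 2.50 to 8.18, did not pass over all genes (limma adjusted p = 0.0764). As 1 library was left out, the log2 difference ran from 1.81 to 2.64. It was lowest without Dnmt1KO replicate 1, the library with almost no Y chromosome reads (limma adjusted p = 0.291). Leaving out that library also gave the lowest value for autosomal genes, namely Pmaip1 (1.98), Perp (2.12), Dram1 (1.81), Fas (0.38) and Bbc3 (0.53). For Trp53inp1, Phlda3, Bax and Aen another library did so. Of the fits that left out 1 library, only that without Dnmt1KO replicate 3 called Eda2r, and the adjusted p reached 0.421 without WT replicate 3.

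Fas was the gene with the fewest reads of the 10. It had 64.1, 29.6 and 36.3 scaled reads in Dnmt1KO against 27.5, 26.3 and 22.0 in WT. Replicate 1 of Dnmt1KO stood apart, and replicate 2 was just above the highest WT library. The log2 difference was 0.69 ± 0.35 (SE) and its ratio of 1.62 had an interval of 0.926 to 2.83 (limma adjusted p = 1). Without Dnmt1KO replicate 1 the log2 difference was 0.38.

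Perp encodes a tetraspan membrane protein that p53 induces in apoptosis and that is a desmosome component of stratified epithelia, where p63 controls it. Perp had 412, 344 and 103 scaled reads in Dnmt1KO and 35.0, 71.7 and 31.2 in WT. Dnmt1KO replicate 3 was nearer to WT replicate 2 than to the other Dnmt1KO libraries. The log2 means were 10.20 ± 1.09 in Dnmt1KO and 7.70 ± 0.64 in WT (SD of 3 libraries). The difference of 2.50 ± 0.54 (SE), the highest of the 10 at 5.66-fold, had an interval of 2.38 to 13.5 and did not pass (limma adjusted p = 0.212). Trp63 had 27, 118 and 48 unscaled reads in Dnmt1KO and 6, 19 and 25 in WT, with a log2 difference of 2.08 ± 0.67 (SE) that did not pass either (limma adjusted p = 0.691). For both genes every Dnmt1KO library lay above every WT library. The highest Trp63 level was in Dnmt1KO replicate 2 and the highest Perp level in replicate 1, and a link between them was not tested.

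Phlda3 encodes a pleckstrin homology domain protein that competes with AKT for membrane lipids and so represses AKT. It had 1309, 1367 and 1054 scaled reads in Dnmt1KO and 1019, 1307 and 1001 in WT. The groups overlapped, and the ratio of 1.12 had an interval of 0.901 to 1.40 (limma adjusted p = 1). Aen, a nuclease that digests DNA in apoptosis, had 1284, 1375 and 1080 scaled reads in Dnmt1KO and 1287, 1225 and 1247 in WT. Its ratio of 0.990 had an interval of 0.840 to 1.17 (limma adjusted p = 1), with Dnmt1KO libraries on both sides of the WT range.

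**Figure D2:**
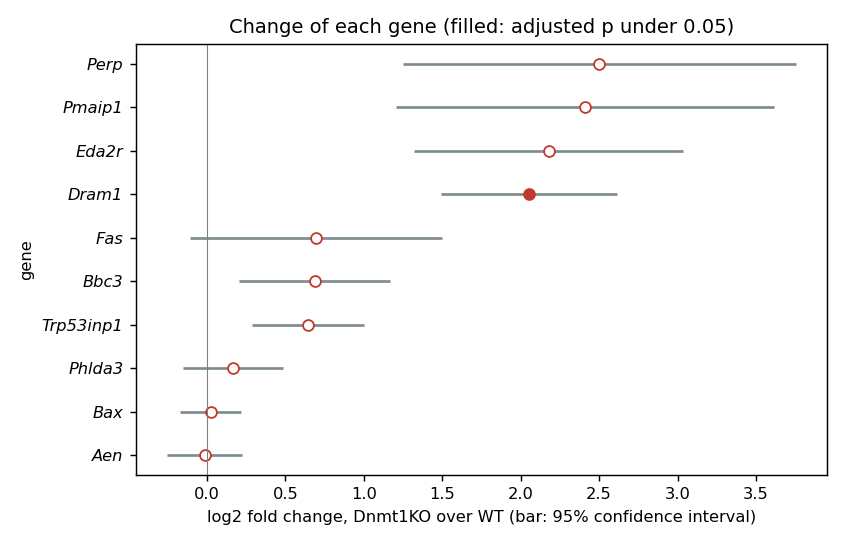
The horizontal axis gives the log2 fold change of Dnmt1KO over WT for each gene with its 95% confidence interval from limma, and a filled point marks an adjusted p under 0.05. The 4 upper genes lie above 2, the middle 3 near 0.69, and the lower 3 near 0, with Dram1 the filled point.

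The spread between libraries differed between the groups. The SD was larger in Dnmt1KO than in WT for 8 of the 10 genes, against 50.8% of all genes. Dnmt1KO replicate 1 was the highest of its group for 6 of the 10, against 34.0% of all genes, and replicate 3 the lowest for 7, against 36.6%. Taken as a median over the 10, replicates 1, 2 and 3 of Dnmt1KO exceeded the WT average by 1.17, 0.76 and 0.44, against -0.02, 0.02 and -0.09 for the WT replicates. Without Dnmt1KO replicate 3, limma called Perp (8.72-fold, adjusted p = 0.0175), Pmaip1 (0.0159) and Eda2r (0.00409) as well as Dram1 (0.0494). The library left out was the lowest of its group for Perp, Pmaip1 and Eda2r. No other fit that left out 1 library called any of them. Sample weights gave Dnmt1KO replicate 3 the lowest weight of the 6 libraries (0.602), with WT replicate 1 close to it (0.619). With these weights limma called Eda2r (0.0134) and Pmaip1 (0.0392) beside Dram1 (0.0196). All genes called higher came to 0.275% without Dnmt1KO replicate 3 and to 0.402% with sample weights. Summed erythroid marker reads, scaled, were highest in that library, at 55275 against 33635 and 38320 in the other Dnmt1KO libraries and 24467 to 34489 in WT. The part of these in the lower levels of replicate 3 was not tested.

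**Figure D3:**
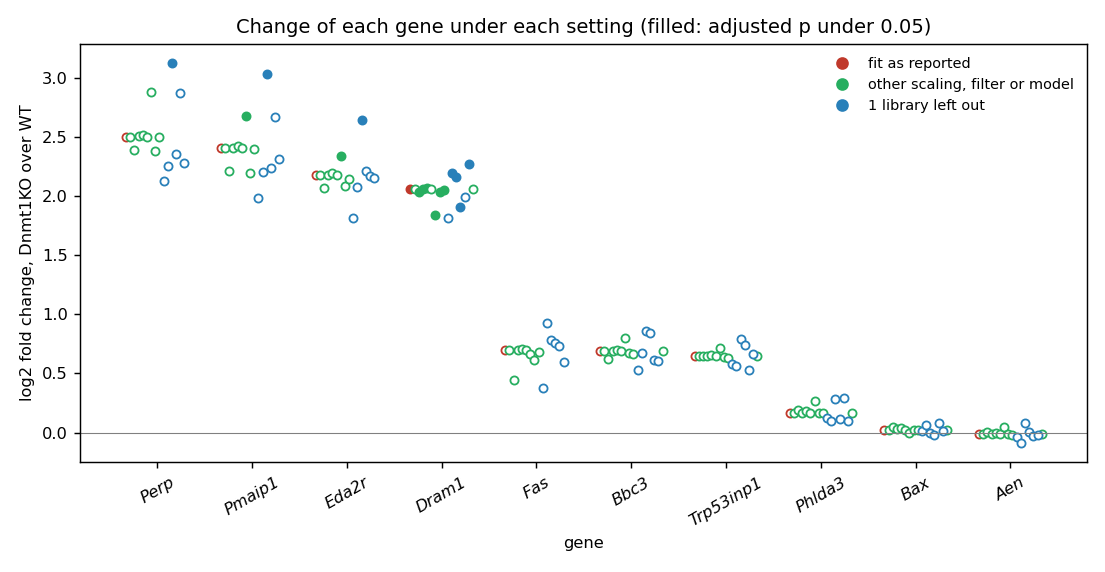
The vertical axis gives the log2 fold change of Dnmt1KO over WT for each gene under the fit as reported (red), other scalings, filters or models (green) and fits without 1 library (blue), with filled points for an adjusted p under 0.05. Dram1 ran from 1.81 to 2.27 as libraries were left out and Perp from 2.12 to 3.12, and Bax and Aen lay on both sides of 0.

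The promoters of these genes were also read for sites at which DNA methylation can lie. DNA methylation in mammals sits mainly on cytosines that precede a guanine, written CpG. RefSeq windows of 300 bases, from 250 before to 50 after a start site, were matched by symbol for 7 of the 10 genes, and Pmaip1, Perp and Trp53inp1 had none. The window of Dram1 held 36 CpG and that of Eda2r held 5, beside a median of 7 and quartiles of 3 and 20 over 32851 windows of the genome. The windows of Bbc3 held 30 to 39, that of Phlda3 26, those of Aen 20 and 21, that of Bax 19 and that of Fas 14. Eda2r alone lay below the median, and the other genes with a window lay above it. Among the 7 genes with a window, high CpG counts were found both in the upper step of change (Dram1) and in the lower step (Phlda3). Eda2r, also in the upper step, had the fewest CpG, and Perp and Pmaip1 of that step had no window. Any link between CpG count and change was not tested. No methylation was measured. The promoters of Dram1 and Eda2r are shown as examples of a high and a low count. They run from 250 to 11 bases before the RefSeq start on the gene's strand in build GRCm38.p6, each 5′ to 3′ with every CpG in capitals. Dram1 lies at chr10:88357086-88357325 (minus strand) and Eda2r at chrX:97377220-97377459 (minus strand).
Dram1: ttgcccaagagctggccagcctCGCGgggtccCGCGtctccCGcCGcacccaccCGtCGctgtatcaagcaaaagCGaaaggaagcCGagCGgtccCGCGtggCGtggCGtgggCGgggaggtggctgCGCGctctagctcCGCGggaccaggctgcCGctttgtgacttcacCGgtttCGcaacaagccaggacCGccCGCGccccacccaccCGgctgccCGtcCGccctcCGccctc
Eda2r: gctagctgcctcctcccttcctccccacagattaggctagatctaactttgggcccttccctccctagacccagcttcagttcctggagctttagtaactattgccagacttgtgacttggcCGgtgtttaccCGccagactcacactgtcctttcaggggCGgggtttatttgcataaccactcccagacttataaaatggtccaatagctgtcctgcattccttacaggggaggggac
The Dram1 stretch holds 30 CpG and the Eda2r stretch 3.

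The same windows were searched for the p53 response element, which is made of 2 half-sites of 10 letters with a spacer of 0 to 13 letters between them. The half-site reads the same on both strands, so 1 pass covers both, and overlaps with other motifs were not examined. Bax held the closest match, with 1 mismatch over both half-sites, as did or bettered 1.09% of all windows. Aen followed with 2 mismatches (10.1% of windows), then Bbc3, Dram1 and Fas with 3 (45.1%) and Eda2r and Phlda3 with 4 (89.3%). The matches of Bax and Aen are shown because both genes overlapped between the groups, and that of Bbc3 as the BH3-only gene that had a window. Capitals mark the 4 core letters of each half-site, in build GRCm38.p6 on the gene's strand, 5′ to 3′. The Bax match is at chr7:45467090-45467110 (minus strand), 212 bases before the start. That of Aen is at chr7:78895937-78895963 (plus strand), 121 bases before the downstream of its start sites, and that of Bbc3 at chr7:16309486-16309505 (plus strand), 97 bases before the upstream one.
Bax: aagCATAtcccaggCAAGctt
Aen: gggCTTGtccgggcaaggagCTTCcgc
Bbc3: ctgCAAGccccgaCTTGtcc
A match describes these letters only, and binding of p53 was not measured.

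Other genes of the pathway were read from lists, of which the p53 regulators come first. Trp53 itself had, before scaling, 4412, 4154 and 4804 reads in Dnmt1KO libraries against 5188, 4243 and 4941 in WT libraries, and the groups overlapped. Its log2 mean was 14.49 ± 0.12 in Dnmt1KO and 14.38 ± 0.03 in WT (SD of 3 libraries), and the difference of 0.10 ± 0.08 (SE) did not pass (limma adjusted p = 1). Of the 14 measured genes of the p53 family and its regulators none passed in either direction, 9 had a positive fold change and the median was 0.011. Hipk2, a kinase that phosphorylates p53, stood at -0.18 ± 0.18 and Atm, the kinase of DNA breaks, at -0.09 ± 0.10.

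Among 22 measured p53 targets for arrest, repair and feedback, none passed in either direction, 16 had a positive fold change and the median was 0.15. In 5 of the 22 every Dnmt1KO library was above every WT library, against 4.79% of all genes. In none was every Dnmt1KO library below, against 3.99% of all genes. Cdkn1a, the cell cycle inhibitor p21, had 1021, 761 and 268 unscaled reads in Dnmt1KO and 119, 100 and 98 in WT (limma adjusted p = 0.128). Ccng1, the cyclin G1 gene, had 2357, 2168 and 1345 in Dnmt1KO and 1078, 1048 and 947 in WT, a log2 difference of 1.10 ± 0.24 (SE, adjusted p = 0.219). Gdf15, a stress cytokine, had 94, 41 and 18 against 4, 2 and 0 (adjusted p = 0.141), and Zmat3, an RNA-binding p53 target, stood at 0.70 ± 0.21 (adjusted p = 0.568). Without Dnmt1KO replicate 3, Cdkn1a (9.93-fold, limma adjusted p = 0.000667) and Ccng1 (2.63-fold, 0.00613) passed and no other gene of the 22 did. Neither passed in another fit that left out 1 library. For Cdkn1a, Ccng1, Gdf15 and Zmat3 alike, Dnmt1KO replicate 1 was the highest library.

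Of 14 other p53 targets linked to death none passed, 10 had a positive fold change and the median was 0.090. Rprm, a p53-induced arrest gene, stood at 0.60 ± 0.17 (limma adjusted p = 0.533), Ei24 at 0.15 ± 0.08, Pidd1, the death-domain protein that activates caspase-2, at 0.24 ± 0.15, and Bid, which links death receptors to mitochondria, at -0.43 ± 0.19 (adjusted p = 1 for the last 3).

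Death machinery outside the 10 genes gave no calls. Some genes, such as Bid, Casp6 and Tnfrsf10b, are shared between lists, so the lists are not independent. Of 12 measured BCL2 family genes outside the 10, Bid among them, none passed in either direction, and the median was -0.035. Bcl2 (-0.15 ± 0.09) and Mcl1 (-0.09 ± 0.07), survival proteins of the family, and Bcl2l11 (0.11 ± 0.12), a BH3-only protein also called BIM, all had limma adjusted p = 1. Of 17 apoptosome and caspase genes none passed, with values between -0.24 for Htra2, a mitochondrial protease, and 0.11 for Casp6, an executioner caspase. Of 12 measured death receptor and ectodysplasin genes none passed, with a median of -0.025. Eda, which encodes the ligand of Eda2r, had 307, 296 and 288 unscaled reads in Dnmt1KO and 293, 240 and 251 in WT, a log2 difference of 0.40 ± 0.13 (limma adjusted p = 0.691). Tnfrsf10b, the mouse TRAIL receptor, stood at 0.30 ± 0.22, Tradd, an adaptor, at -0.17 ± 0.12, and Tnfrsf19 at -0.16 ± 0.12 (adjusted p = 1 for each).

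Autophagy genes other than Dram1 and Trp53inp1 gave no calls. None of the 28 passed, 15 had a positive fold change and 13 a negative one, and all lay between -0.18 and 0.20 with a median of 0.0030. Uvrag, a partner of the lipid kinase complex, was at -0.18 ± 0.09, the lysosomal protein gene Lamp2 at 0.16 ± 0.08, the LC3 relative Gabarapl2 at 0.20 ± 0.12 and the cargo receptor gene Sqstm1 at 0.12 ± 0.08 (limma adjusted p = 1 for each). Of 8 measured paralogs of the 10 genes none passed. Dram2, the paralog of Dram1, had 352, 409 and 430 unscaled reads in Dnmt1KO and 439, 397 and 414 in WT, a log2 difference of 0.13 ± 0.10, and Phlda1 stood at 0.11 ± 0.11. Phlda2, an imprinted relative of Phlda3, was at 0.92 ± 0.32 with 45, 50 and 60 reads against 30, 42 and 24 (limma adjusted p = 0.817). At an unadjusted p under 0.05, where 4.52% of all genes lay, there were 8 of the 22 arrest, repair and feedback targets, 1 each of the other death targets, the p53 regulators, the apoptosome and caspase genes, the receptor genes and the paralogs, and none of the BCL2 family or autophagy machinery. Voom called none in any of these lists.

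**Figure D4:**
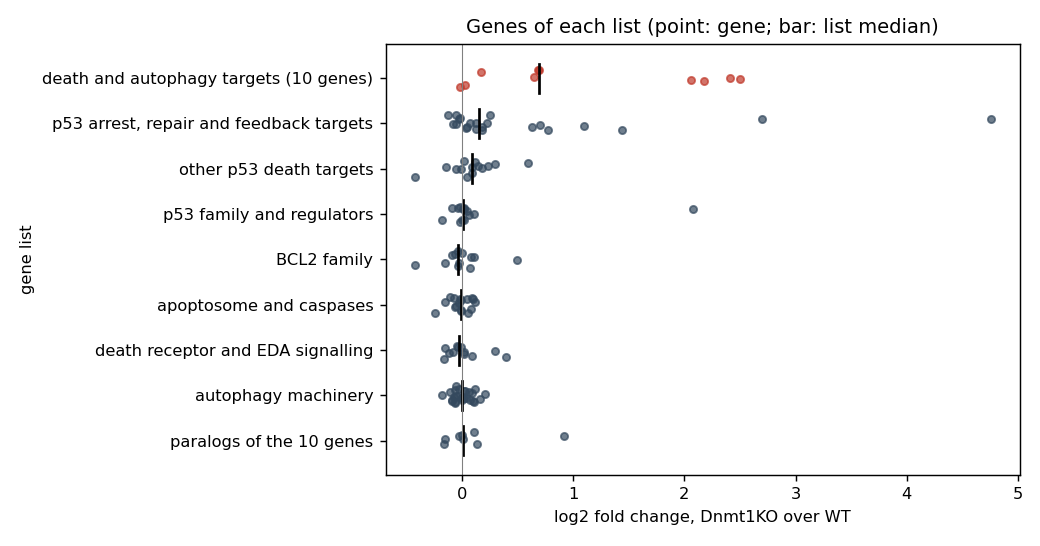
The horizontal axis gives the log2 fold change of Dnmt1KO over WT for each gene of 9 lists, with a bar at the list median. The 10 death and autophagy targets have a median of 0.69, the arrest targets of 0.15 with Gdf15 and Cdkn1a at the far right, and the autophagy machinery lies within 0.20 of 0.

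The pattern of the 10 genes over the 6 libraries was also used as a template. Each gene was centred and divided by its SD, the 10 were averaged, and the mean was compared with 2039 named genes whose log2 values ranged over at least 1. The Pearson correlation over the 6 libraries was highest for Ccng1 (0.998), then Aox3, an aldehyde oxidase (0.990), Mapkapk3, a kinase downstream of p38 (0.989), Cdkn1a (0.988) and Fstl4 (0.987). These are the top of a ranking over 6 libraries and carry no test. None of the 5 passed limma's test, with adjusted p = 0.449 for Aox3, Mapkapk3 at 0.95 ± 0.22 (0.240) and Fstl4 at 0.81 ± 0.29 (0.841). Of the 10 genes themselves, Pmaip1 (0.993), Perp (0.987) and Eda2r (0.981) were nearest to the mean to which they contribute, Dram1 was at 0.876, and Aen (0.304) and Bax (0.133) were farthest.

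**Figure D5:**
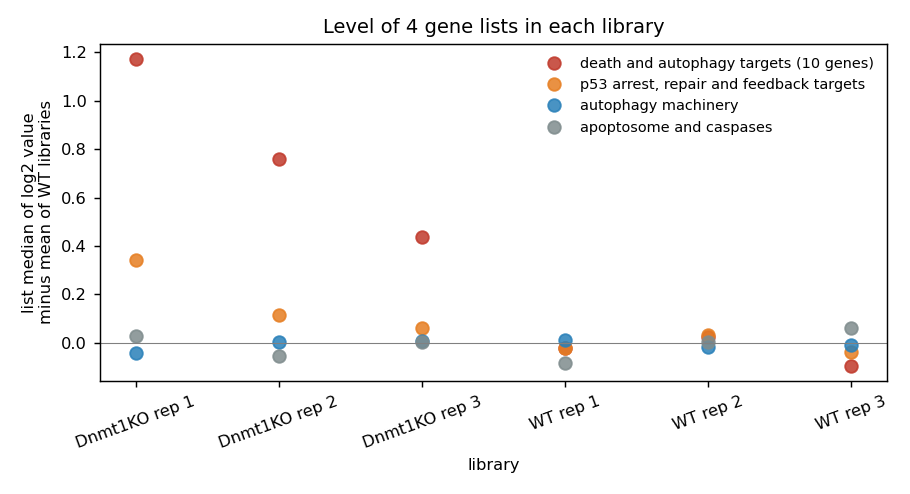
The vertical axis gives the median, over the genes of a list, of the log2 value minus the mean of the WT libraries, for each of the 6 libraries. The 10 death and autophagy targets stand at 1.17, 0.76 and 0.44 in the Dnmt1KO libraries and the arrest targets at 0.34, 0.11 and 0.06, while autophagy machinery and apoptosome genes lie near 0 in all 6.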

How the data were processed

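Each deposited table covers 1 library and pairs Ensembl identifiers with a column headed SIGNAL, per the file headers, read here as log2 from its range. STAR, limma and the build mm9 appear without versions in the submitters' processing notes. How the authors counted, filtered and scaled is not given in the sources used here. Raising 2 to each deposited log2 value gave a whole number of reads plus 0.5, times a constant of the library, for 100% of genes within 1e-06 reads. The lowest gene total was 60 reads. Scaled reads are these reads times that constant over its geometric mean. Symbols came from GENCODE M21 (13967 of 14162 identifiers) and promoters from RefSeq (GRCm38.p6). The log2 values of all genes were fitted with limma 3.58.1 (R 4.3.3), with genotype as the only term and trend and robust moderation. Benjamini-Hochberg adjustment was used at 0.05. The same fit was tried on simulated reads. Those held no differences in sex or tissue content between libraries, so they do not show how the fit deals with such differences. The 10 genes and all lists were chosen with earlier results of these data known, so no set test was run. Genes named from a list were the 4 with the smallest p, plus Trp53 and Cdkn1a. Those named by likeness were the first 5. Any other gene was named after its values were seen.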

Additional observations from a re-analysis of the deposited data

How the results depend on the processing

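The median log2 fold change of the 10 genes moved by less than its spread between Dnmt1KO libraries under every alternative tried, and 8 of the 10 genes, all except Bax and Aen, kept the sign of their fold change. The median moved most with the lowest 25% of genes removed, from 0.69 to 0.41. That filter left 6 genes, without Pmaip1, Fas, Eda2r and Perp. The number of the 10 called higher was 1 as reported, 0 with the lowest 25% of genes removed (which leaves out 4 of the 10) or without trend and robust estimation, and 3 with sample weights. As 1 library was left out it ran from 0 to 4. All genes called higher were 40 as reported, 26 with the replicate block, 0 with the lowest 25% removed, 47 with scaling to total reads and 57 with sample weights, and 15 to 42 as libraries were left out. Genes called lower were 1 as reported, 0 with the replicate block, with the lowest 25% removed and without trend and robust estimation, 12 with sample weights, and 0 to 17 as libraries were left out. Dram1 had adjusted p = 0.129 with the lowest 25% removed, 0.0836 without trend and robust estimation and 0.0327 with voom on recovered reads. Sample weights gave limma adjusted p = 0.0134 for Eda2r and 0.0392 for Pmaip1. Aen turned to 0.0060 with quantile normalization, 0.00065 with scaling to total reads and 0.047 with sample weights, and Bax to -0.00018 with sample weights. As libraries were left out Bax ran from -0.019 to 0.078 and Aen from -0.089 to 0.085. The cause of these moves was not tested. With the replicate number as a block, none of the 10 passed (0 called, Dram1 adjusted p = 0.138). The labels do not say whether equal numbers mark paired libraries. Deviations from the group means correlated at -0.0027, -0.18 and 0.31 between equal numbers, and at up to 0.38 between unequal ones. These values cannot settle the question. With an offset of 5 reads Pmaip1 was at 2.19 and Fas at 0.61, against 2.41 and 0.69 as reported.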

Other observations

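Within the Dnmt1KO group, the library with the lowest levels of most of these p53 targets was not the one with the least of the germline gene Dazl, chosen here after its values were seen. Dazl had 437, 346 and 1055 reads in Dnmt1KO replicates 1, 2 and 3, against 0, 3 and 2 in WT. Pmaip1 had 176, 143 and 47 unscaled reads in the same Dnmt1KO libraries, against 20, 29 and 20 in WT. Replicate 3 was thus the highest Dnmt1KO library for Dazl and the lowest for Pmaip1, Eda2r and Perp. Dnmt1 itself had log2 values of 15.57, 15.40 and 15.31 in Dnmt1KO replicates 1, 2 and 3, against 15.72, 15.74 and 15.76 in WT, so replicate 3 also had the lowest Dnmt1 level. The 3 libraries do not allow a test of these orders.

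Foxa1, a pioneer factor of the lung epithelium, had 318, 355 and 884 unscaled reads in Dnmt1KO and 1576, 1498 and 1513 in WT, so replicate 3 was the Dnmt1KO library nearest to WT for Foxa1, as for Pmaip1, Eda2r and Perp (log2 difference -1.51 ± 0.32, limma adjusted p = 0.223).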
